A study of Mus musculus with 18 samples.

Results

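Glycolysis, the entry of pyruvate into mitochondria and the tricarboxylic acid (TCA) cycle were followed through 39 genes, out of 22298 genes in the count table of the study. The genes were taken by name as core genes of the route, and 39 of 39 matched an Ensembl identifier in the table through GENCODE M21. They were read by step. Glucose entry and phosphorylation held 3 genes, the transporter Slc2a1 and the hexokinases Hk1 and Hk2. Upper glycolysis held 6, the isomerase Gpi1, the phosphofructokinases Pfkl, Pfkm and Pfkp, the aldolase Aldoa and the triose phosphate isomerase Tpi1. Lower glycolysis held 5, Gapdh, Pgk1, Pgam1, Eno1 and Pkm, and lactate dehydrogenase held 2, Ldha and Ldhb. Pyruvate import and the pyruvate dehydrogenase complex held 6, the carrier subunits Mpc1 and Mpc2 and the complex subunits Pdha1, Pdhb, Dlat and Pdhx. The regulators of that complex held 4, the kinases Pdk1, Pdk2 and Pdk3 and the phosphatase Pdp1. The TCA cycle held 13, Cs, Idh2, Idh3a, Idh3b, Idh3g, Ogdh, Dlst, Suclg1, Suclg2, Sucla2, Fh1, Mdh1 and Mdh2.

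The study sequenced polyadenylated RNA from eWAT, iWAT and liver of 12-week old C57BL/6 mice, in 18 libraries. These are the usual short names of epididymal and inguinal white adipose tissue, the gonadal and the subcutaneous fat depot. The group called KO here was labelled Bckdha f/f;RIP-Cre and the group called WT was labelled Bckdha f/f, with 3 libraries of each genotype per tissue. Both genotypes carry the floxed Bckdha alleles, so WT is the floxed control without Cre and not a mouse with unaltered alleles. Bckdha is needed for branched-chain amino acid breakdown, as the alpha chain of E1 in the mitochondrial complex that oxidises the branched-chain keto acids. RIP-Cre is Cre driven by the rat insulin promoter, used to target pancreatic beta cells and known to act in some neurons, so none of the profiled tissues is its usual target. No group with RIP-Cre alone is among the samples, and the labels give neither the sex of the mice nor whether libraries came from separate animals. The p-values therefore measure the spread between libraries, which may be technical.

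Glycolysis splits glucose into pyruvate in the cytosol, with irreversible steps at hexokinase, phosphofructokinase and pyruvate kinase that are served by tissue-specific isozymes. Pyruvate is either reduced to lactate or imported by the mitochondrial pyruvate carrier and oxidised to acetyl-CoA by the pyruvate dehydrogenase complex, which its kinases switch off and its phosphatases switch on. In white fat this acetyl-CoA feeds citrate and fatty acid synthesis when insulin is high. Liver runs several of the same reactions backwards to release glucose and draws on the TCA cycle for biosynthesis.

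Library totals ran from 16796147 to 28039742 expected counts, and the 39 genes took 0.584% to 1.71% of them. The targeted gene did not separate the genotypes in any tissue: Bckdha ran from 37.1 to 250.9 CPM (counts scaled to the library's size) in eWAT WT and from 78.0 to 113 in eWAT KO, from 89.3 to 170.3 in iWAT WT and 88.0 to 178 in iWAT KO, and from 372 to 445 in liver WT and 328 to 464 in liver KO. Hepatocyte markers summed to 201500 to 261800 CPM in liver and to 199 to 9735 CPM in the fat libraries, of which Cyp2e1 alone made 55.5 to 9624 CPM and the other 7 markers 40.1 to 476 CPM. The eWAT libraries were uneven. Of 10 mature adipocyte markers, none at 0 in any library, the summed level was 33060, 262 and 52650 CPM in eWAT WT 1, 2 and 3, and 11640, 22730 and 16220 CPM in eWAT KO 1, 2 and 3. Epididymal epithelium markers summed to 49760 CPM in eWAT WT 2, to 1088 and 1265 CPM in eWAT KO 1 and 3, and to 0.460 to 61.6 CPM in the other libraries. Crisp1 alone made 1071 and 1238 CPM of the sums in eWAT KO 1 and 3, and 760 CPM in eWAT WT 2. Gpx5, the highest of these markers in eWAT WT 2 at 30807 CPM, stood at 9.03 and 14.1 CPM in eWAT KO 1 and 3. Smooth muscle markers summed to 324, 1278 and 245 CPM in eWAT WT 1, 2 and 3. In eWAT KO 1, 2 and 3 they summed to 2684, 164 and 2605 CPM. Results in eWAT are therefore given with and without eWAT WT 2 where it decides them. In bulk tissue, fewer cells of a type and less RNA per cell cannot be told apart.

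Levels between genes were compared in FPKM, which is scaled by transcript length. Gapdh, the glyceraldehyde phosphate dehydrogenase, was the most abundant of the 39 transcripts in each tissue, with a median of 791 FPKM in eWAT (range 521 to 1390.3), 1119.8 in iWAT (range 767 to 1328) and 1318 in liver (range 1107 to 1688), over 6 libraries each. In both fat depots Aldoa, Ldha and Eno1 came next, with median FPKM of 575, 437 and 385 in eWAT and 927, 557 and 525 in iWAT. In liver the order was Ldha, the cytosolic malate dehydrogenase Mdh1, Eno1 and Tpi1, at 445, 339.7, 316 and 306 FPKM. In liver Ldha, from 301 to 515 FPKM, and Mdh1, from 312 to 414, overlapped in range, while Gapdh did not overlap either. At the lower end stood Pdp1, a phosphatase that switches pyruvate dehydrogenase on, with medians of 5.85, 4.61 and 0.250 FPKM in eWAT, iWAT and liver, and Pdk3, with 8.54, 8.78 and 0.370. Hk2 and Pfkp were near that floor in liver alone, at 0.645 and 1.02 FPKM, against 54.8 and 39.6 in iWAT. Among the complex subunits Pdha1 and Pdhb had medians of 206 and 230.5 FPKM in iWAT and 32.8 and 77.0 in liver, while Dlat and Pdhx stood lower, at 54.3 and 28.5 in iWAT and 10.5 and 12.8 in liver.

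**Figure D1:**
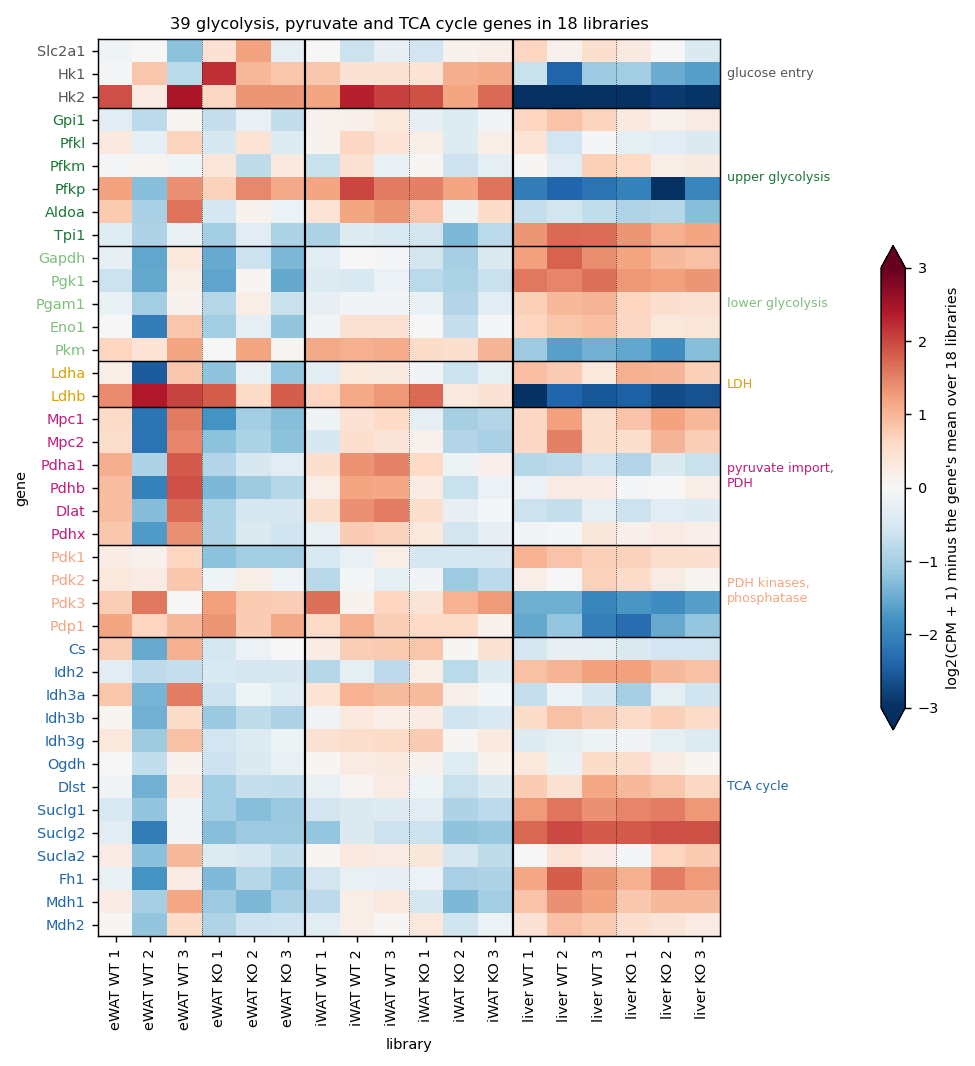
Heat map of the 39 genes (rows, grouped and coloured by pathway step) in the 18 libraries (columns), where the colour is log2(CPM + 1) minus the gene's mean over the 18 libraries. Liver columns are low at Hk2, Pfkp, Pkm, Ldhb, Pdk3 and Pdp1 and high at Suclg1, Suclg2, Tpi1 and Pgk1 against both fat depots, and eWAT WT 2 is lower than eWAT WT 1 and 3 in each pyruvate import and dehydrogenase row.

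The isozymes that serve the same reaction took different shares of their family's summed FPKM in the tissues. Of pyruvate kinase FPKM Pklr, the liver and red cell form, took a median of 81.0% (77.1 to 84.6) in liver and Pkm 99.9% (99.5 to 99.97) in iWAT. Pkm kept 19.0% (15.4 to 22.9) in liver. Phosphofructokinase was shared in fat between Pfkl and Pfkp, at 48.0% (41.7 to 55.0) and 42.6% (37.3 to 48.2) in iWAT, and in liver between Pfkl and Pfkm, at 67.6% (59.5 to 79.6) and 25.5% (15.99 to 33.9). Lactate dehydrogenase in liver was almost all Ldha, at 99.7% (99.5 to 99.8). Ldhb, the heart-type subunit, took 7.70% (6.61 to 13.0) in iWAT and 17.5% (6.95 to 56.6) in eWAT. The libraries of highest epididymal marker sums, eWAT WT 2, KO 1 and KO 3, held 56.6%, 26.3% and 25.6%. In eWAT WT 1, WT 3 and KO 2 the share was 9.37%, 9.39% and 6.95%, within the iWAT range.

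The succinyl-CoA ligase of the TCA cycle also differed in its beta subunit. Suclg2, which makes the GTP-forming enzyme with Suclg1, took 77.8% (71.0 to 80.1) of the beta-subunit FPKM in liver against 39.1% (31.9 to 46.5) in iWAT, and Sucla2, which makes the ATP-forming enzyme, held 60.9% (53.5 to 68.1) in iWAT. No pair of liver and iWAT libraries overlapped in that share. Pdk2 was the leading pyruvate dehydrogenase kinase in each tissue, with 64.4% (60.6 to 66.7) in eWAT, 49.2% (42.1 to 58.7) in iWAT and 63.9% (55.6 to 68.7) in liver. Pdk1 was second in liver at 32.3% (27.6 to 40.5), and Pdk4, the fasting-responsive kinase, took 17.8% (11.5 to 22.3) in iWAT and 3.34% (2.06 to 3.54) in liver.

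**Figure D2:**
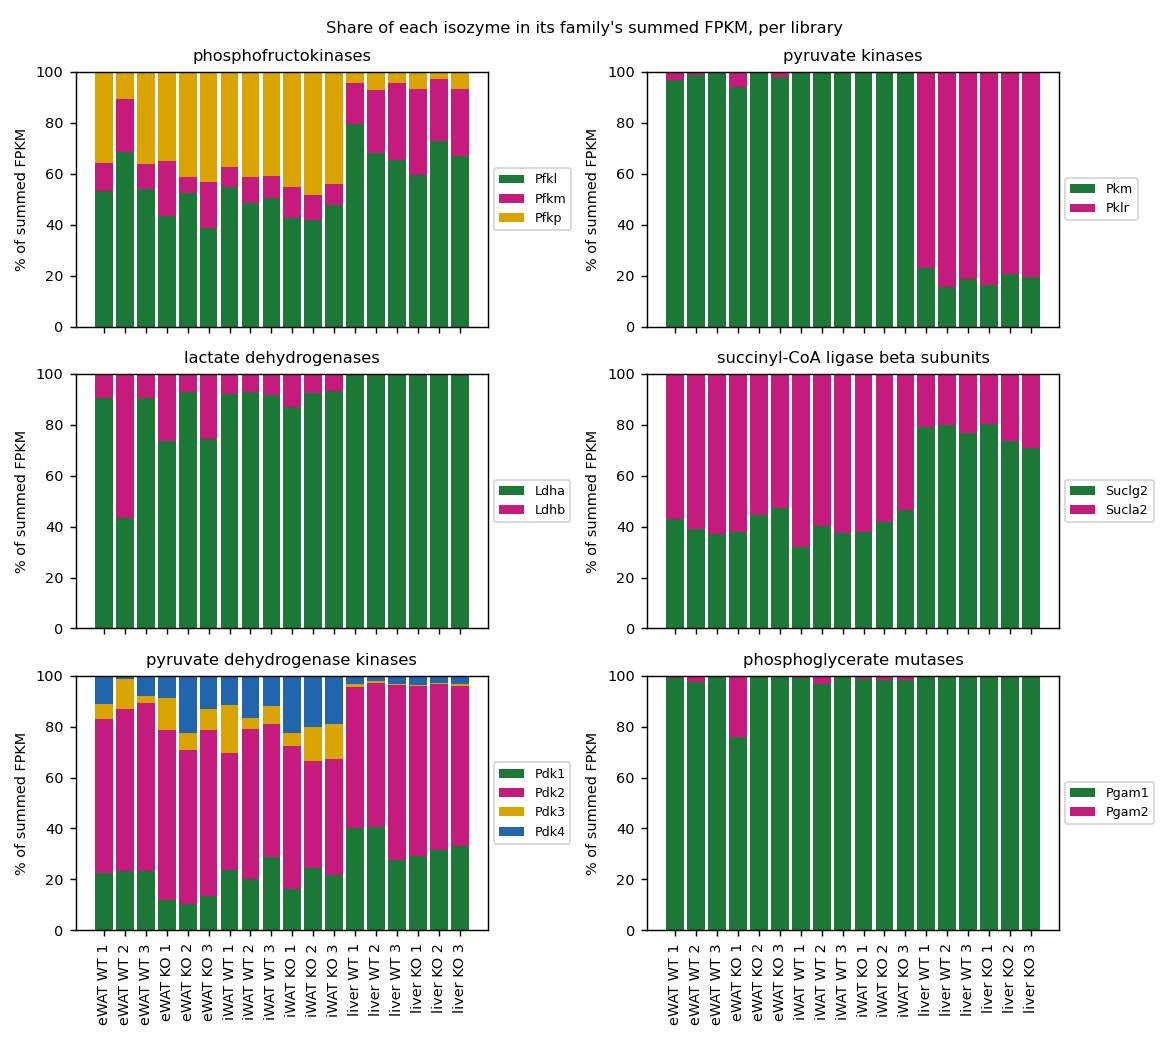
Stacked bars of the share of a family's summed FPKM (y axis, percent) taken by each isozyme in each of the 18 libraries (x axis), 1 panel per family. Pklr and Suclg2 hold medians of 81.0% and 77.8% in liver, Pkm and Sucla2 hold 99.9% and 60.9% in iWAT, and the Pdk1 share is lower in the 3 eWAT KO libraries than in the 3 eWAT WT libraries.

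Liver was compared with iWAT within each genotype, which asks how the route differs between a fat depot and liver, with no library shared between the genotypes. Of the 39 genes, 14 were higher and 13 lower in liver in WT, and 19 were higher and 11 lower in KO, at an adjusted p under 0.05 (edgeR's quasi-likelihood test, Benjamini-Hochberg adjustment over all genes tested). Over all genes tested 62.7% were called in WT, 27.2% higher and 35.5% lower, and 69.1% in KO, 30.2% higher and 39% lower. The members' median log2 fold change was 0.51 in WT and 0.56 in KO, against -0.22 in both for all genes tested. In both genotypes 12 genes were called higher, Tpi1, Gapdh, Pgk1, Pgam1, Pdk1, Idh2, Idh3b, Dlst, Suclg1, Suclg2, Fh1 and Mdh1, and 11 were called lower, Hk1, Hk2, Pfkp, Aldoa, Pkm, Ldhb, Pdha1, Pdk3, Pdp1, Cs and Idh3a. Another 11 were called in 1 genotype only, Slc2a1, Gpi1, Pfkm, Eno1, Ldha, Mpc1, Mpc2, Dlat, Pdk2, Idh3g and Mdh2, and 5 in neither, Pfkl, Pdhb, Pdhx, Ogdh and Sucla2. No gene was called in opposite directions. Without liver WT 3, 9 members were called higher in WT.

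The direction of the moderate increases depends on the scaling. With library totals in place of the trimmed mean of M-values (TMM), the median of all genes moved from -0.22 to -1.59 in WT and to -1.66 in KO, and 3 members were higher and 25 lower in WT and 5 higher and 22 lower in KO. Among all called genes the share called higher fell from 43.4% to 12.5% in WT and from 43.7% to 12.2% in KO. On log2(FPKM + 1), 4 were higher and 25 lower in WT and 5 and 22 in KO. Each gene called lower under TMM stayed called lower under both. Tpi1, Suclg1 and Suclg2 stayed called higher under both in WT, and Tpi1, Pgk1, Suclg1 and Suclg2 in KO. Of the called increases, 7 turned to lower values under both scalings in WT, those of Slc2a1, Pgam1, Pdk1, Idh3b, Dlst, Mdh1 and Mdh2. In KO 10 did, those of Gpi1, Pfkm, Pgam1, Eno1, Ldha, Mpc2, Pdk1, Pdk2, Idh3b and Dlst, and Idh2 did under library totals only. Those increases stayed called under median-of-ratios scaling, so their direction depends on the scaling chosen.

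The largest decreases in liver were of Hk2, Pfkp and Ldhb in glycolysis and of Pdk3 and Pdp1 at pyruvate dehydrogenase. Hk2 (chr6:82725025-82774454, minus strand, mm10), which traps glucose in insulin-responsive cells, had 139.7, 311 and 255 CPM in iWAT WT 1, 2 and 3 and 5.68, 6.08 and 6.32 CPM in liver WT. The corresponding KO values were 232, 140.4 and 202 CPM in iWAT and 6.93, 7.45 and 7.09 CPM in liver. No liver library reached any iWAT library, and the log2 fold change was -5.27 (SE 0.35, adjusted p = 2.73e-05) in WT and -4.66 (SE 0.26, adjusted p = 1.62e-06) in KO. Pfkp, the platelet-type phosphofructokinase, had 70.7, 126 and 91.3 CPM in iWAT WT and 6.42, 5.01 and 5.77 CPM in liver WT, with a log2 fold change of -4.04 (SE 0.28, adjusted p = 3.13e-05) in WT and -3.87 (SE 0.32, adjusted p = 1.62e-05) in KO. Ldhb had 38.97, 55.6 and 61.9 CPM in iWAT WT and 2.31, 3.95 and 3.43 CPM in liver WT, with a log2 fold change of -4.00 (SE 0.31, adjusted p = 5.42e-05) in WT and -3.81 (SE 0.45, adjusted p = 0.000117) in KO. For both genes the groups did not overlap in either genotype.

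Among the regulators of pyruvate dehydrogenase, Pdk3 and Pdp1 were lower in liver in both genotypes. Pdk1 was called higher under TMM and median-of-ratios scaling and turned lower under library totals and log2(FPKM + 1). Pdk3 had 23.5, 7.33 and 11.3 CPM in iWAT WT and 1.81, 1.81 and 0.992 CPM in liver WT, with a log2 fold change of -3.17 (SE 0.53, adjusted p = 0.00186) in WT and -3.32 (SE 0.34, adjusted p = 5.58e-05) in KO. Pdp1 had 9.05, 13.1 and 10.3 CPM in iWAT WT and 1.32, 2.03 and 0.632 CPM in liver WT, with a log2 fold change of -3.02 (SE 0.44, adjusted p = 0.000980) in WT and -2.61 (SE 0.45, adjusted p = 0.000947) in KO. Pdk3 and 1 opposing phosphatase, Pdp1, were thus both lower in liver, with all liver libraries below all iWAT libraries. The other phosphatase, Pdp2, was not lower in CPM, at 19.1, 31.8 and 26.7 in iWAT WT and 67.1, 44.5 and 53.1 in liver WT. In KO it had 33.3, 25.1 and 28.4 CPM in iWAT and 55.0, 68.7 and 49.97 CPM in liver. In FPKM its WT libraries overlapped, at 4.65 to 6.75 in iWAT and 3.62 to 6.31 in liver. Of the enzyme itself Pdha1, the E1 alpha subunit, was called lower in liver in both genotypes, at -1.90 in WT and -0.80 in KO on the log2 scale. Dlat, the E2 core, was called lower in WT only, at -1.74 (SE 0.30, adjusted p = 0.00200), against -0.48 (SE 0.24, adjusted p = 0.110) in KO, and Pdhb and Pdhx were called in neither genotype. Mpc1 and Mpc2, which form the pyruvate carrier, were called higher in KO only, at 1.79 and 1.34, against 0.52 and 0.79 in WT, where they did not pass, and that of Mpc2 turned lower under library totals and log2(FPKM + 1). The difference between the genotypes did not pass for any of these genes, as given with the genotype effects.

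The largest increases in liver were of Suclg2, Suclg1 and Fh1 in the TCA cycle and of Tpi1 and Pgk1 in glycolysis. Suclg2 (chr6:95473009-95718800, minus strand, mm10) had 57.4, 96.6 and 83.0 CPM in iWAT WT and 433, 519.6 and 465 CPM in liver WT, and 82.3, 55.5 and 59.0 CPM in iWAT KO and 470.0, 502 and 489 CPM in liver KO. All liver libraries stood above all iWAT libraries, with a log2 fold change of 2.60 (SE 0.26, adjusted p = 0.000177) in WT and 2.98 (SE 0.23, adjusted p = 1.16e-05) in KO. Suclg1, the shared alpha subunit, had 78.9, 84.5 and 88.0 CPM in iWAT WT and 282, 354 and 301 CPM in liver WT, with a log2 fold change of 1.91 (SE 0.20, adjusted p = 0.000212) in WT and 2.19 (SE 0.22, adjusted p = 5.06e-05) in KO. Tpi1, which interconverts the triose phosphates that aldolase makes, had 186, 271 and 257 CPM in iWAT WT and 880.3, 1154 and 1126 CPM in liver WT, with a log2 fold change of 2.16 (SE 0.26, adjusted p = 0.000405) in WT and 2.16 (SE 0.27, adjusted p = 0.000150) in KO. Both genes were apart between the tissues in each genotype. Pgk1 (chrX:106187100-106203699, plus strand, mm10), the phosphoglycerate kinase, had 195, 188 and 230.5 CPM in iWAT WT and 770.4, 716 and 811 CPM in liver WT, with a log2 fold change of 1.92 (SE 0.22, adjusted p = 0.000291) in WT and 2.19 (SE 0.20, adjusted p = 2.37e-05) in KO. Fh1, fumarate hydratase, had 70.1, 88.9 and 87.4 CPM in iWAT WT and 231, 367 and 262 CPM in liver WT, with a log2 fold change of 1.82 (SE 0.25, adjusted p = 0.000770) in WT and 2.05 (SE 0.28, adjusted p = 0.000251) in KO. Under library totals in WT, Pgk1 (0.55, adjusted p = 0.0586) and Fh1 (0.43, adjusted p = 0.0933) no longer passed. The TCA cycle was not uniform: Cs, the citrate synthase at its entry, and Idh3a, the catalytic subunit of the NAD-dependent isocitrate dehydrogenase, were called lower in both genotypes, at -0.93 and -1.27 in WT and -0.93 and -0.94 in KO, while Idh2, the NADP-dependent mitochondrial enzyme, was called higher at 1.70 and 1.41, which turned lower under library totals in KO.

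**Figure D3:**
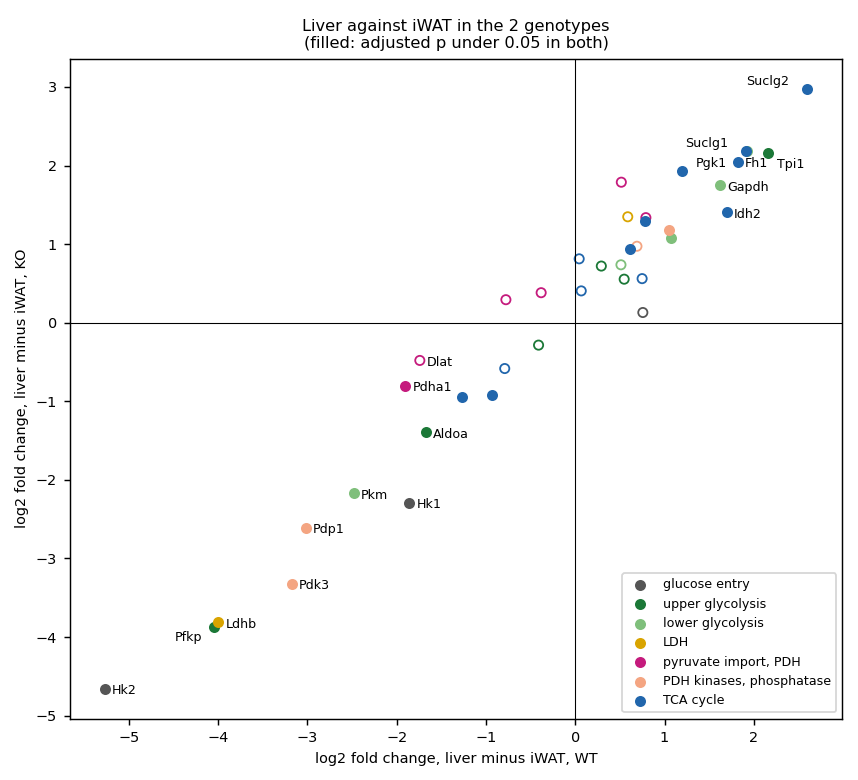
Log2 fold change of liver against iWAT in WT (x axis) and in KO (y axis), 1 point per gene coloured by pathway step and filled where the adjusted p was under 0.05 in both genotypes. Hk2 lies lowest at -5.27 in WT and -4.66 in KO, Suclg2 lies highest at 2.60 and 2.98, Pgk1 and Suclg1 fall on nearly the same point, and each filled point has the same sign in both genotypes under TMM scaling.

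Of 63 other genes of the pathway, 58 were tested in each genotype: 23 were higher and 16 lower in WT, and 27 higher and 15 lower in KO. Among those higher in liver, Pklr rose by a log2 fold change of 10.61 (SE 0.37, adjusted p = 2.79e-06) in WT and 8.72 (SE 0.74, adjusted p = 1.82e-05) in KO. The liver glucose transporter Slc2a2 rose by 9.91 (SE 0.41, adjusted p = 4.04e-06) in WT and 9.39 (SE 0.52, adjusted p = 1.59e-06) in KO. In the fat, Slc2a4, the insulin-responsive glucose transporter, had 183, 495 and 412 CPM in iWAT WT against 1.15, 3.84 and 1.62 CPM in liver WT, and fell by 7.36 on the log2 scale in WT and by 6.99 in KO. Eno2 stood at 0 to 0.43 CPM in the liver libraries and was called lower in both genotypes, and Me3, called lower in WT, at 0 to 0.18 CPM in liver WT.

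Promoter sequences were read to see whether members that were higher or lower in liver carry the same short motifs. RefSeq windows on GRCm38.p6 (mm10), from 250 bases before to 50 bases after a start, were found for 37 of the 39 genes, in 55 windows, and not for Pdp1 and Idh3a. ACGTG, the core shared by hypoxia-response elements and E-box-like sites, was searched on both strands and lay in 16 of the 37 genes, against 21.8% of 27025 genes with a window. CACGTG, the palindromic E-box, which contains ACGTG on both strands, lay in 4 of 37 (8.09% of all genes), and AAGGTCA, the site motif of the estrogen-related receptors, in Eno1, Ogdh and Tpi1 (5.38% of all genes). Over windows, 23 of 55 member windows held ACGTG against 19.6% of all 32851. The motif lay in 3 of 3 glucose entry genes, 2 of 6 upper glycolysis genes (Aldoa and Pfkm), 4 of 5 lower glycolysis genes (Gapdh, Pgam1, Pgk1 and Pkm), 1 of 2 lactate dehydrogenases (Ldha), 2 of 3 kinases (Pdk2 and Pdk3), 1 of 6 pyruvate dehydrogenase genes (Pdhb) and 3 of 12 TCA cycle genes with a window (Idh3g, Mdh1 and Ogdh). It lay in 4 of the 12 genes called higher and 5 of the 9 genes called lower in liver in both genotypes. Windows are printed for a gene low in liver (Hk2), genes high in liver (Pgk1 and Tpi1) and a gene with 5 matches (Ldha), 5′ to 3′ on the strand of the gene. In Hk2, Pgk1 and Ldha the capitals mark ACGTG or its reverse complement CACGT, and in Tpi1 they mark TGACCTT, the reverse complement of AAGGTCA.
Hk2: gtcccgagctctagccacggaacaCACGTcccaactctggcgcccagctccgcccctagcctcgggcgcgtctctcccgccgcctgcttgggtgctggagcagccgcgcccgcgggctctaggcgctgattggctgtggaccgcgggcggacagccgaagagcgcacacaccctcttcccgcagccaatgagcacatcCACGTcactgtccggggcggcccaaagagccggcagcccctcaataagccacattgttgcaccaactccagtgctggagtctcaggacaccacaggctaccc
Pgk1: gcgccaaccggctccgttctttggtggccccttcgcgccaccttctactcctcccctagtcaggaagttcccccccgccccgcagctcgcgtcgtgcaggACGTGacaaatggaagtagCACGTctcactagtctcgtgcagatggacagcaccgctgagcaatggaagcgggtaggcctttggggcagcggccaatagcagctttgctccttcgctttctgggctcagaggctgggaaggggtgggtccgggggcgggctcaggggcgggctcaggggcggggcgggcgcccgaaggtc
Ldha: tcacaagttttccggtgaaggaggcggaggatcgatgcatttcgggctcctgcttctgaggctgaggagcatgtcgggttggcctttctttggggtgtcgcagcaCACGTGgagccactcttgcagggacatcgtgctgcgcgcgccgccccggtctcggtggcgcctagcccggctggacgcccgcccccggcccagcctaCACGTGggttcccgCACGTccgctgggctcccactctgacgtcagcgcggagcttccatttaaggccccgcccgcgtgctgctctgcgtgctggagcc
Tpi1: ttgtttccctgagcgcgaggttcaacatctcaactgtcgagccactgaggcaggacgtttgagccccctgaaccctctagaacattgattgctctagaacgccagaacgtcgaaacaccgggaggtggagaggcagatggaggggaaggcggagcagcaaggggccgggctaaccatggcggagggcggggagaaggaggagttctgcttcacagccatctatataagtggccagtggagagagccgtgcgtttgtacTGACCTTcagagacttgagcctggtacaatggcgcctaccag
The windows are chr6:82774405-82774704 (minus strand) for Hk2, chrX:106186850-106187149 (plus) for Pgk1, chr7:46845554-46845853 (plus) for Ldha and chr6:124814109-124814408 (minus) for Tpi1, all mm10. Hk2 and Pgk1 each hold 2 matches to ACGTG, and Ldha holds CACGTG as well. A match is a stretch of letters in this window and was not measured as a bound site.

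KO was compared with WT within each tissue, which asks whether the genotype changed the route in tissues that are not the usual target of the Cre. No member passed an adjusted p under 0.05 in eWAT, iWAT or liver, where 0%, 0% and 0.0504% of all genes passed. DESeq2 called 1, 0 and 0 members and limma-voom 0 in each. At an unadjusted p under 0.05 by edgeR, 2 members were found in eWAT (6.88% of all genes), 5 in iWAT (4.43%) and 1 in liver (6.26%). Groups whose 3 KO libraries all lay below the 3 WT libraries were found for 2 members in eWAT, 7 in iWAT and 7 in liver, against 7.10%, 5.61% and 7.70% of all genes, and groups all above for 1, 0 and 1, against 8.94%, 3.72% and 5.17%. The members' median log2 fold change was -0.66 in eWAT, -0.37 in iWAT and -0.10 in liver, where all genes had -0.02, 0.01 and 0.00. Fold changes were below 0 for 33 of 39 members in eWAT, 35 in iWAT and 24 in liver. The count in eWAT was 26 under library totals and under log2(FPKM + 1), and in liver it was 18 and 17.

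Pyruvate import and the dehydrogenase complex had the lowest step median in both fat depots. All 6 of Mpc1, Mpc2, Pdha1, Pdhb, Dlat and Pdhx were lower in KO in eWAT, with a median log2 fold change of -1.67, and in iWAT, with -0.95, but none passed. In liver the median was 0.12. The summed CPM of these 6 genes was 1823, 333 and 3341 in eWAT WT 1, 2 and 3 and 433, 588 and 595 in eWAT KO 1, 2 and 3. The groups overlap through eWAT WT 2, and without eWAT WT 3 the median was -0.87, without eWAT WT 2 it was -2.14. In iWAT the sums were 1151, 2062 and 2186 in WT and 1221, 694 and 838 in KO, where the groups overlap at iWAT WT 1 and iWAT KO 1. In liver they lay between 1003 and 1405. The 10 adipocyte markers summed to 9403, 29700 and 23020 CPM in iWAT WT and 27800, 12080 and 12710 CPM in iWAT KO. The libraries iWAT KO 2 and iWAT KO 3 were low in both sums, iWAT WT 1 was the lowest WT library in both, and iWAT KO 1 lay within the WT range in both. The 2 sums did not rank the libraries alike. iWAT WT 1 had the lowest marker sum, 9403 CPM, but more of the 6 genes than iWAT KO 2 and iWAT KO 3. iWAT KO 1 and iWAT WT 2 had marker sums of 27800 and 29700 CPM, with 1221 and 2062 CPM of the 6 genes. Other cell types moved as well. B cell markers summed to 994, 3.02 and 411 CPM in iWAT WT and 272, 906 and 854 CPM in iWAT KO, and T cell markers to 371, 9.26 and 242 CPM in iWAT WT and 145, 537 and 442 CPM in iWAT KO. The libraries iWAT WT 1, iWAT KO 2 and iWAT KO 3 were thus highest in both lymphoid sums and lowest in the adipocyte markers. Erythroid markers summed to 1638, 3017 and 2581 CPM in iWAT WT and 2973, 1012 and 1351 CPM in iWAT KO, and skeletal muscle markers to 421 CPM in iWAT WT 2 and at most 29.99 CPM in the other iWAT libraries. Macrophage markers also differed, at 2613 to 2975 CPM in iWAT WT and 1310 to 1956 CPM in iWAT KO. Their part in these results was not tested.

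**Figure D4:**
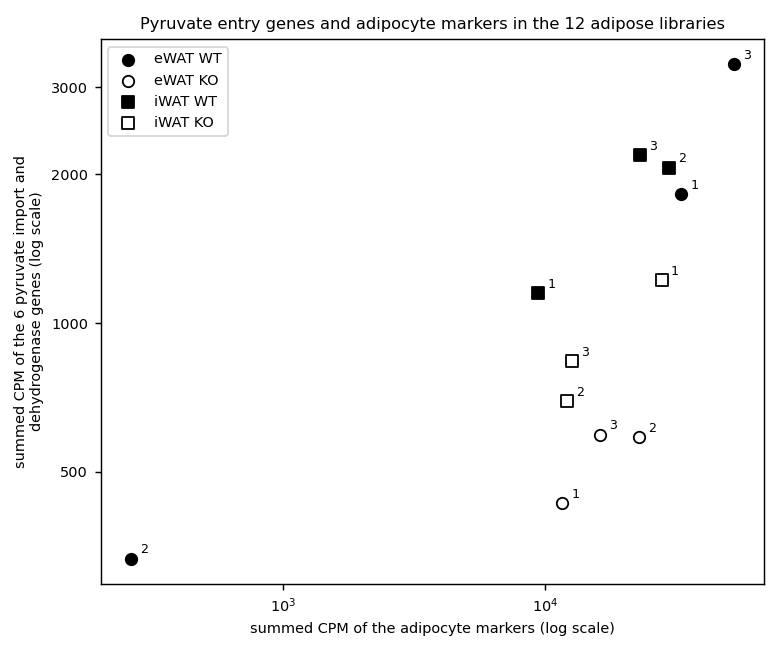
Summed CPM of the 6 pyruvate import and dehydrogenase genes (y axis) against summed CPM of the 10 mature adipocyte markers (x axis) in the 12 adipose libraries, 1 point per library with its replicate number, both axes on a log scale. Library eWAT WT 2 is lowest at 333 and 262 CPM and eWAT WT 3 is highest at 3341 and 52650 CPM, while eWAT KO 2 and iWAT WT 3 have nearly the same marker sum, 22730 and 23020 CPM, and 588 and 2186 CPM of the 6 genes.

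In eWAT the gene of lowest p was Pdk1 (chr2:71873224-71903858, plus strand, mm10), the kinase that phosphorylates and switches off the E1 subunit. It had 116, 108 and 155 CPM in eWAT WT and 41.3, 48.4 and 47.7 CPM in eWAT KO, and every KO library lay below every WT library. The log2 fold change was -1.48 (SE 0.22, adjusted p = 0.633) and did not pass edgeR's quasi-likelihood test, while DESeq2 called it (adjusted p = 1.25e-06), as did the edgeR fit of all 18 libraries (adjusted p = 0.00824). DESeq2 called 0.839% and that fit 0.344% of all genes tested, and among the members Pdk1 only. As a share of pyruvate dehydrogenase kinase FPKM, Pdk1 took 23.0% ± 0.427 (SD, n = 3) in eWAT WT and 11.9% ± 1.64 (SD, n = 3) in eWAT KO. Its adjusted p stayed between 0.194 and 0.915 when each library was left out. The uneven library eWAT WT 2 held 108 CPM of Pdk1, below but close to eWAT WT 1. Adipocyte markers summed to 262 CPM and epididymal epithelium markers to 49760 CPM in eWAT WT 2. Which cells gave its Pdk1 was not tested, so its level may not be that of fat.

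The other members of low p in eWAT overlapped between the genotypes or lay close. Mdh1 had 593, 254 and 1132 CPM in WT and 237, 198 and 259 CPM in KO, with a log2 fold change of -1.53 (SE 0.56, adjusted p = 0.633). Pdha1 had 610.0, 149.7 and 1032 CPM in WT and 156, 205 and 228 CPM in KO, at -1.62 (SE 0.67, adjusted p = 0.633), and Pdhb, the E1 beta subunit, had 408, 52.2 and 819 CPM in WT and 83.3, 101 and 118 CPM in KO, at -2.09 (SE 0.88, adjusted p = 0.633). All 3 overlapped through eWAT WT 2, which lay within or below the KO libraries. Hk1 went the other way, with 29.6, 54.5 and 17.0 CPM in WT and 143, 61.6 and 55.1 CPM in KO at 1.305 (SE 0.54, adjusted p = 0.633). The highest value is that of eWAT KO 1, which also held 867 CPM of spermatid markers, and the log2 fold change was 0.79 without it and 1.93 without eWAT WT 2. The groups did not overlap, but the gap is between eWAT WT 2 at 54.5 and eWAT KO 3 at 55.1 CPM. Pdk2 was the other member with all KO libraries below WT, with 135, 127 and 192 CPM in WT and 99.0, 124 and 99.4 CPM in KO at -0.52 (SE 0.25, adjusted p = 0.633). By step, the median in eWAT was 0.93 for glucose entry, -0.27 for upper and -0.31 for lower glycolysis, -0.68 for lactate dehydrogenase, -0.26 for the kinases and phosphatase (0.055 under library totals), and -0.69 for the TCA cycle, where 12 of 13 genes were lower. Without eWAT WT 2 the log2 fold change was -1.89 for Mdh1, -2.06 for Pdha1 and -2.60 for Pdhb. Without eWAT WT 3 it was -0.84 for Mdh1, -0.92 for Pdha1 and -1.15 for Pdhb, and the TCA cycle median was -0.20. The median of lower glycolysis was -1.11 without eWAT KO 2. Without the libraries of highest epididymal marker sums (eWAT WT 2 and eWAT KO 1 and 3), 1 KO library is left, which is assumed to vary like the others. In that fit 32 members were lower, and the log2 fold change was -1.49 for Pdk1, -2.13 for Mdh1, -2.01 for Pdha1 and -2.61 for Pdhb.

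**Figure D5:**
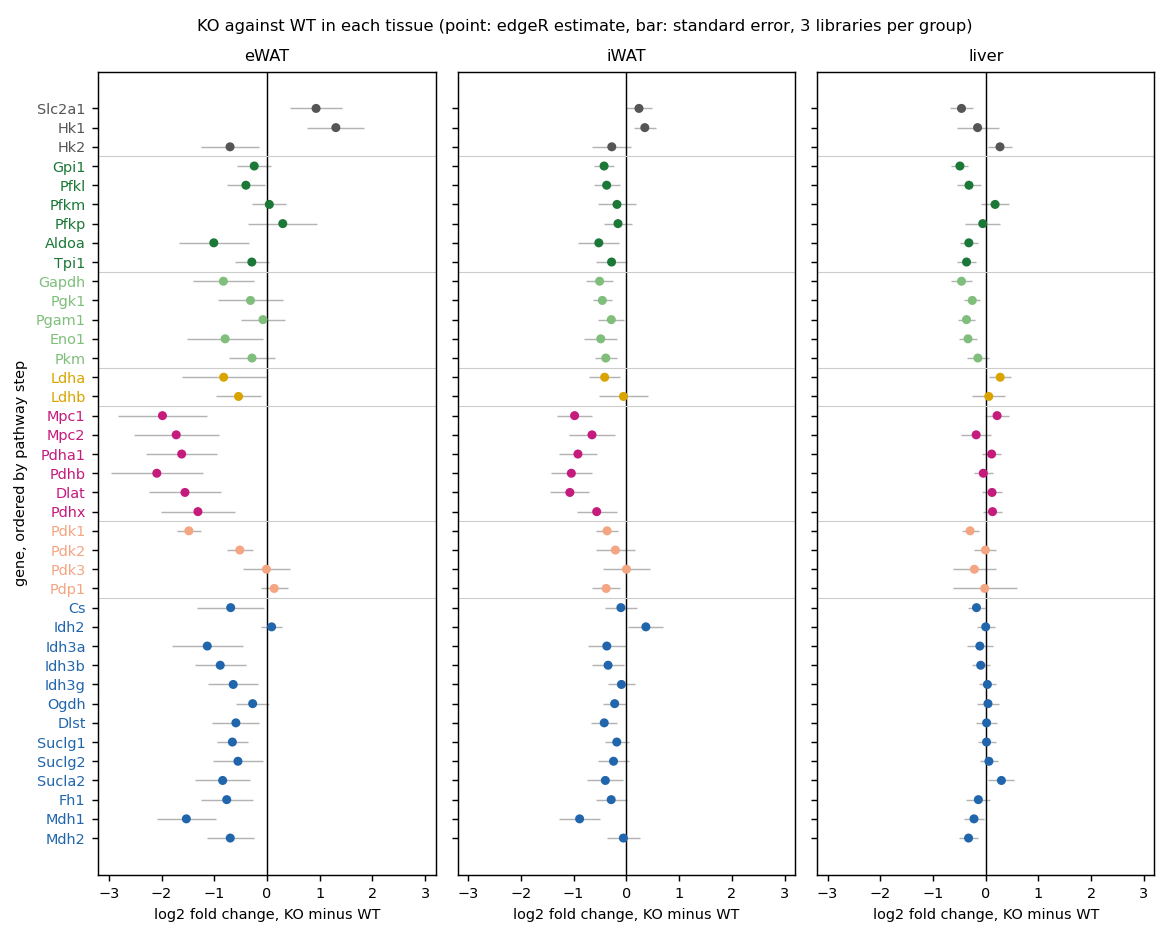
Log2 fold change of KO against WT (x axis, bars of 1 standard error) for each of the 39 genes (y axis, by step) in eWAT, iWAT and liver, 3 libraries per group. The pyruvate import and dehydrogenase genes lie left of 0 in eWAT and iWAT, with medians of -1.67 and -0.95, and near 0 in liver, and no member passed the test.

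In iWAT the 5 members of lowest p were all lower in KO and none passed, with an adjusted p of 0.9997 for each. Mpc1, a pyruvate carrier subunit, had 227, 338 and 382 CPM in WT and 209, 125 and 136 CPM in KO, with a log2 fold change of -0.98 (SE 0.33). Dlat had 158, 282 and 315 CPM in WT and 157, 91.4 and 104 CPM in KO, at -1.07 (SE 0.37). For both, each KO library lay below each WT library, though iWAT WT 1 and iWAT KO 1 were close. Pgk1 had 195, 188 and 230.5 CPM in WT and 148, 133 and 162 CPM in KO, at -0.46 (SE 0.18), with the groups apart. Pdhb and Pdha1 had 248, 484 and 481 and 408, 737 and 805 CPM in WT and 254, 134 and 189 and 434, 259 and 321 CPM in KO, at -1.04 (SE 0.39) and -0.92 (SE 0.36), and overlapped through iWAT WT 1 and iWAT KO 1. Gpi1, Gapdh, Pkm and Pdk1 were also apart and lower. The step medians were -0.33 for upper and -0.46 for lower glycolysis, with 6 of 6 and 5 of 5 genes lower, -0.23 for lactate dehydrogenase, -0.29 for the kinases and phosphatase and -0.24 for the TCA cycle. Slc2a1, Hk1, Idh2 and Pdk3 were the 4 genes not below 0, at 0.24, 0.35, 0.37 and 0.00.

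In liver the 5 members of lowest p were in glycolysis and glucose entry, all lower in KO and none passing. Gpi1, the glucose phosphate isomerase, had 576, 668 and 588 CPM in WT and 448, 402 and 440.4 CPM in KO, with a log2 fold change of -0.49 (SE 0.16, adjusted p = 0.613). Gapdh had 3461, 5039 and 3883 CPM in WT and 3342, 2896 and 2697 CPM in KO at -0.46 (SE 0.21, adjusted p = 0.793), and Pgam1, the phosphoglycerate mutase, had 395, 477 and 491 CPM in WT and 376, 343 and 329 CPM in KO at -0.36 (SE 0.17, adjusted p = 0.793). The KO and WT libraries did not overlap for Gpi1, Gapdh or Pgam1, with KO lower. Without liver WT 2 the log2 fold change was -0.40 for Gpi1 and -0.26 for Gapdh, and without liver WT 1 it was -0.54 and -0.58. Liver endothelial markers summed to 126 CPM in liver WT 2 and to 357 to 431 CPM in the other liver libraries. The part of that difference in these values was not tested. Tpi1 had 880.3, 1154 and 1126 CPM in WT and 888, 742 and 800.0 CPM in KO at -0.36 (SE 0.18, adjusted p = 0.818), and Slc2a1, the basal glucose transporter, had 42.7, 29.5 and 37.8 CPM in WT and 32.5, 27.1 and 19.5 CPM in KO at -0.46 (SE 0.22, adjusted p = 0.817), both with overlap. Aldoa, Pgk1, Eno1 and Pdk1 were also lower in all KO libraries, and Hk2 was higher, at 6.93, 7.45 and 7.09 CPM against 5.68, 6.08 and 6.32. The lower glycolysis median was -0.34, with 5 of 5 genes lower, and that of upper glycolysis -0.32. The step medians of glucose entry, the kinases and phosphatase, lactate dehydrogenase and the TCA cycle were -0.15, -0.12, 0.17 and 0.00, and that of glucose entry was 0.22 without liver WT 1.

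Of the 63 other genes of the pathway, 62 were tested in eWAT, 57 in iWAT and 55 in liver, and 0 passed in each. At an unadjusted p under 0.05 there were 5, 4 and 8, against 6.88%, 4.43% and 6.26% of all genes. Their median log2 fold changes were -0.38, -0.15 and -0.05. The succinate dehydrogenase and remaining TCA cycle genes were lower in 9 of 9 in eWAT, with a median of -0.68, and in 7 of 8 tested in iWAT, with -0.21, and in 7 of 8 in liver, with -0.15.

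The genotype effects were then compared between tissues, which tests whether the KO minus WT difference itself differed. No member passed for iWAT against eWAT, liver against iWAT or liver against eWAT, where 0%, 0% and 0% of all genes passed. At an unadjusted p under 0.05 there were 1, 4 and 6 members, against 5.55%, 4.64% and 5.85% of all genes. The comparisons share libraries, so they are given side by side. For Pdk1 the difference in log2 fold change was 1.08 (iWAT minus eWAT), 0.07 (liver minus iWAT) and 1.22 (liver minus eWAT), and DESeq2 called the last (adjusted p = 0.00127). For Pdha1 it was 0.66, 1.03 and 1.77, for Mpc1 0.96, 1.21 and 2.24, and for Dlat 0.44, 1.19 and 1.71. Without eWAT WT 3 the liver minus eWAT value was 1.05 for Pdha1, 1.301 for Mpc1 and 0.96 for Dlat. Without eWAT WT 2 it was 2.22, 2.75 and 2.18 in that order. With each library left out, the lowest adjusted p was 0.0580, 0.0644 and 0.0577 (edgeR's quasi-likelihood test), so none passed. The step median for pyruvate import and dehydrogenase was 0.83, 1.02 and 1.74. For Slc2a1 the difference ran the other way, at -1.37 in liver against eWAT.

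The fat depots were compared within each genotype. In WT no member passed (0% of all genes passed) and 2 had an unadjusted p under 0.05 (16.3% of all genes), Ldhb at -1.03 and Pdk2 at -0.88 in iWAT relative to eWAT. Ldhb had 67.8, 135 and 104 CPM in eWAT WT and 38.97, 55.6 and 61.9 CPM in iWAT WT, and Pdk2 had 135, 127 and 192 and 60.5, 106 and 89.6. Next by p were Pdk1, Gpi1 and Pfkp, at -0.54, 0.46 and 0.78. Pfkp had 71.8, 12.0 and 79.8 CPM in eWAT WT 1, 2 and 3 and 70.7, 126 and 91.3 CPM in iWAT WT. Without eWAT WT 2 the log2 fold change was 0.30 for Pfkp and 0.28 for Gpi1. For Ldhb, Pdk2 and Pdk1 it was then -0.76, -0.98 and -0.63. In KO no member passed where 8.24% of all genes did, and 9 had an unadjusted p under 0.05 against 30.0% of all genes, a lower share than that of all genes. In KO 29 of 39 members were higher in iWAT, with a median of 0.39 against -0.01 for all genes. They included 6 of 6 pyruvate import and dehydrogenase genes (median 0.68) and 13 of 13 TCA cycle genes (median 0.43). Smooth muscle markers summed to 2684, 164 and 2605 CPM in eWAT KO 1, 2 and 3, against 165.5 to 202 CPM in iWAT KO. The part of these cells in the depot difference was not tested.

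Pdk1 came closest in KO, with 41.3, 48.4 and 47.7 CPM in eWAT and 69.7, 68.4 and 69.1 CPM in iWAT and a log2 fold change of 0.55 (SE 0.14, adjusted p = 0.0595). Pdhb had 83.3, 101 and 118 CPM in eWAT KO and 254, 134 and 189 CPM in iWAT KO at 0.90 (SE 0.28, adjusted p = 0.0898), Idh3g, the gamma subunit of isocitrate dehydrogenase, was at 0.74 (SE 0.24, adjusted p = 0.103), and Pdha1 at 0.75 (SE 0.27, adjusted p = 0.120). DESeq2 called these 4, with adjusted p of 0.00103 for Pdk1, 0.0162 for Pdhb, 0.0313 for Idh3g and 0.0333 for Pdha1. Pdp1 was lower at -0.75 (SE 0.26, adjusted p = 0.117). Leaving out eWAT KO 2 or iWAT KO 1 gave 1 call by edgeR in each case. Of the 63 other genes 59 were tested and 3 passed: Me1 and Slc25a1, the malic enzyme and the citrate exporter that supply fatty acid synthesis, were higher in iWAT KO at 1.62 and 2.03, and Ogdhl was lower at -4.96, from 12.0, 0.776 and 2.69 CPM in eWAT KO and under 1 CPM in iWAT KO.

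Reads of several members may be shared with other genes. No source used here says whether counting used strand, and Pfkm, Pfkp, Aldoa, Tpi1, Gapdh, Pdha1, Idh3b, Sucla2, Fh1 and Mdh1 overlap a protein-coding gene on the other strand. Gapdh, Eno1 and Pgk1 have near-identical pseudogenes, so their counts are uncertain by that share.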

How the data were processed

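RNA was measured by sequencing of oligo(dT)-enriched, random-primed libraries on an Illumina instrument, per the labels' protocols, with 3 libraries for each of 6 groups. The authors deposited expected counts, named so from their values (8.33% were not whole at a tolerance of 0.01), and FPKM per gene and library. Per the submitters' processing notes the tools named, with no role or order, were RSEM, StringTie 1.3.1, HISAT2, Bowtie2 2.2.8, fastp 0.18.0, edgeR and DESeq2, and the build was mm10; which of them counted, the annotation release and any strand setting are not given in the sources used here. Of 22298 identifiers 22255 matched a symbol in GENCODE M21, 43 had none, and 26 with a repeated symbol were kept under their identifier.

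The deposited expected counts were rounded, genes were filtered with edgeR's filterByExpr (minimum count 10, total 15), scaled by TMM and fitted with glmQLFit (robust) and glmQLFTest in edgeR 4.0.16 under R 4.3.3, one fit per comparison on its own groups. P-values were adjusted by Benjamini-Hochberg over all genes tested, with a threshold of 0.05. CPM values use TMM factors over all 18 libraries. Totals of 16796147 to 28039742 counts leave counting error small beside library spread for most members, and least so for Pdp1, Pdk3, Ldhb, Pfkp and Hk2 in liver. The procedure was tested on simulated data. Isozyme shares came from the deposited FPKM values.

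The members and lists were chosen with earlier results of these data known. Values per library are given for called members, up to 5 per direction by size, or for the 5 of lowest p where fewer than 3 were called, with at least 1 member per step; of other pathway genes, up to 3 called per direction and liver isozymes, some of which are not reported here. Members outside that rule are named where counts are listed. The alternatives were DESeq2 1.42.0, limma-voom (limma 3.58.1), median-of-ratios scaling, library totals, no filter, log2(FPKM + 1) and log2(FPKM + 0.1) on genes of mean FPKM of at least 1, all 18 libraries in one fit, a replicate block, eWAT without the libraries of highest epididymal marker sums, and each library left out. Motif letters were searched on both strands of RefSeq promoter windows.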

Additional observations from a re-analysis of the deposited data

How the results depend on the processing

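With 3 libraries per group and uneven fat composition, the KO against WT comparisons of fat resolve only differences larger than the spread between libraries, and a fold change that did not pass does not show that a gene was unchanged. Called increases in liver that turned lower under other scalings are named with the scaling above, and several step medians changed sign, as given below. Correlations of same-numbered deviations ran from -0.739 to 0.158, with both ends in KO against WT, where 1 number cannot mark 1 mouse. Between the tissues compared within a genotype they ran from -0.28 to 0.091. With 3 libraries per group and uneven fat composition, these values cannot show whether a number marks a shared animal. With the replicate number as a block, 0 members were called in each KO against WT comparison, 26 in liver against iWAT in WT and 31 in KO, and it changed no other call by over 1.5 times. In KO against WT, DESeq2 called 1 member in eWAT and so did the fit of all 18 libraries; DESeq2 called 4 in iWAT against eWAT in KO, where leaving out 1 library gave 0 to 1, and 1 in the genotype effect of liver against eWAT. In liver against iWAT the members called higher were 3 under library totals and 4 on log2(FPKM + 1) and log2(FPKM + 0.1) in WT, with 9 to 16 when 1 library was left out, and 5 in each in KO; those called lower were 25 in each in WT and 22 in each in KO. For Fh1 on log2(FPKM + 1), the adjusted p was 0.0820 in WT and 0.198 in KO.

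Step medians of log2 fold change moved as follows. For KO against WT, lactate dehydrogenase in eWAT was -0.15 on both FPKM scales; the kinases and phosphatase in eWAT were 0.055 under library totals and 0.13 and 0.16 on log2(FPKM + 1) and log2(FPKM + 0.1); lower glycolysis in liver was -0.23 under library totals and -0.23 on both FPKM scales. The kinases and phosphatase in iWAT against eWAT in WT were -0.22 and -0.23 on those scales. With 1 library left out, KO against WT ran from -1.11 to 0.005 for lower glycolysis in eWAT, from -0.46 to -0.15 for the kinases and phosphatase in iWAT, from -0.41 to -0.27 for lower glycolysis in liver from -0.37 to -0.073 for the kinases and phosphatase in liver and from -0.51 to 0.22 for glucose entry in liver. For iWAT against eWAT in WT it ran from -0.08 to 0.49 for upper and -0.20 to 0.58 for lower glycolysis, from -0.67 to 0.62 for pyruvate import and dehydrogenase, from -0.35 to 0.45 for the TCA cycle, from -0.50 to -0.39 for the kinases and phosphatase, and in KO from -0.88 to -0.05 for glucose entry, from -0.062 to 0.74 for lower glycolysis and from -0.47 to 0.12 for lactate dehydrogenase. By expected counts in place of FPKM, the share was 84.1% for Suclg2 in liver, and 50.04% for Sucla2 and 35.2% for Pdk2 in iWAT, since counts are not scaled by length. With only the 250 bases before the start searched, AAGGTCA lay in 1 member. The cause of the other shifts was not tested.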

Other observations

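The testis isozymes of glycolysis Ldhc, Gapdhs and Pgk2, and also Pgam2, which is not specific to testis, were highest in eWAT KO 1. In that library, Ldhc stood at 120.5 CPM, Gapdhs at 76.2, Pgk2 at 38.96 and Pgam2 at 19.9 CPM, while eWAT KO 2 held none of the 4 and eWAT KO 3 at most 0.341 CPM of any. The library eWAT WT 2 held 3.51 CPM of Ldhc, 9.29 of Gapdhs and 5.98 of Pgk2. Among the iWAT libraries, iWAT KO 1 held 3.63 CPM of Ldhc, 2.89 of Gapdhs and 1.02 of Pgk2. Pgam2 was highest among them in iWAT WT 2, at 3.38 CPM, against 1.46 CPM in iWAT KO 1. In iWAT WT 2 skeletal muscle markers summed to 421 CPM and spermatid markers to 0 CPM. Spermatid markers, a list that includes Ldhc, Gapdhs and Pgk2, summed to 867 CPM in eWAT KO 1 and to 95.0 CPM in eWAT WT 2. They summed to 33.8 CPM in iWAT KO 1 against 0 to 0.402 CPM in the other iWAT libraries. Of the markers that are not glycolytic isozymes, Prm2 stood at 210, 29.4 and 8.38 CPM in eWAT KO 1, eWAT WT 2 and iWAT KO 1. Pgam2 took 23.9% of phosphoglycerate mutase FPKM in the highest eWAT library, against a median of 0.720% over the 6 eWAT libraries.

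Genes around the route that had an unadjusted p under 0.05 in KO against WT, none of them called, included the following. In iWAT the lactate transporter Slc16a1 was at a log2 fold change of -0.64 (SE 0.22) and the malic enzyme Me1 at -1.18 (SE 0.47), each with all KO libraries below WT. In eWAT Hk3 was at 1.94 (SE 0.68) and Myc at 1.40 (SE 0.50), each with all KO libraries above WT, and Slc25a11, the oxoglutarate carrier of the malate-aspartate shuttle, at -0.88 (SE 0.24), with all KO libraries below WT. In liver Aldoc was at -0.68 (SE 0.18), Myc at -0.71 (SE 0.25) and Mlxipl, the carbohydrate-response factor, at -0.38 (SE 0.17), each with all KO libraries below WT, and Eno3 was at 0.74 (SE 0.32) with all KO libraries above. All of these had an adjusted p of 0.488 or more (edgeR's quasi-likelihood test).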
